A study of Mus musculus with 12 samples.

Results

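The genes described here are 41 genes that mark the cells of vessels: endothelial cells, which line blood and lymph vessels, and pericytes, which wrap small ones. They were taken from a list of symbols. A probe set of the array counted as a member where the platform annotation gives that 1 symbol alone, and all 41 symbols were found, with 76 probe sets, among 18194 genes with 34958 such probe sets. RNA came from C4-HD, a mouse mammary carcinoma that grows under a progestin, in BALB/c mice that all carried a pellet of MPA (medroxyprogesterone acetate, a progestin) until tumours reached 50 mm2. The 12 arrays form 6 groups of 2, named after their source names: MPA, tumours kept with the pellet; no MPA, labelled as saline-treated for 48 h; and MFP (mifepristone, a drug that blocks the progesterone receptor, at 10 mg/kg/day) for 6 h, 12 h, 24 h or 48 h, given in place of the MPA pellet. MFP against MPA therefore changes 2 things, the loss of MPA and the gain of MFP. The 6 h group rests on the sample labels, since the series text names only the later times, and the treatment protocol takes as control the saline-treated tumours that had MPA, whereas in the sample labels saline goes with the source name without MPA. No label ties an array to an animal, so the spread behind each p-value is that between these samples and may be technical.

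Endothelial cells are held together by cadherin and claudin junctions and grow and mature under VEGF, angiopoietin, Notch, apelin and adrenomedullin signals. Endothelial identity is kept by ETS and SOX transcription factors. In lymphatic endothelium PROX1 sets the identity, and pericytes are drawn to new vessels by PDGF-B acting on PDGFRB. In mammary tumours such vessels belong to the host and supply the carcinoma.

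Array values below are on a log2 scale on which the linear mean of the MPA arrays lies at 0 and a difference of 1 is a doubling. Where the 2 MPA arrays differ, the mean of their log2 values lies below 0, as at -0.25 for Mmrn2 and -0.10 for Emcn. A change against MPA is taken from that lower mean, so it exceeds the mean of the printed values. Array values are listed as replicate 1 and replicate 2 of each group, numbers that only name the arrays in accession order and pair none of them. Such ratios hold differences between arrays, not levels, and whether a gene lay above background cannot be read from them. A change is followed by ± its standard error (limma, 2 arrays per group). A gene rose or fell where its adjusted p (limma, Benjamini-Hochberg over all 18194 genes) was below 0.05. A change in whole tumours can come from more or fewer cells of a type or from more or less RNA per cell, and these cannot be told apart. The RNA had been fixed in formalin.

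At 48 h of MFP 13 of the 41 vessel genes rose against MPA and 1 fell, where of all genes 12.5% passed, 6.47% higher and 6.02% lower. The median change of the members was 1.02, against 0.00 over all genes, and 38 of the 41 changes were above 0. By limma after quantile normalization no member passed this comparison (9 members at an unadjusted p below 0.05, and 3 of all genes passed). In a limma fit on the 4 arrays of both groups alone none passed either (19 members at an unadjusted p below 0.05, and 43 of all genes passed). The 13 that rose were Mmrn2, Selp, Sox18, Calcrl, Emcn, Pdgfrb, Rgs5, Plvap, Robo4, Angpt1, Cdh5, Aplnr and Eng, and the gene that fell was Vwf. Against the no MPA tumours, which are labelled 48 h too, 18 members rose and Vwf fell (of all genes 12.5% passed, 7.49% higher and 5.03% lower), with a median of 1.21 against -0.04 over all genes. There 1 member passed after quantile normalization and 16 in the fit on 4 arrays. Where a count from such an alternative fit stands without one over all genes, here or below, it describes the members alone. Both comparisons use the same MFP 48 h arrays.

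**Figure D1:**
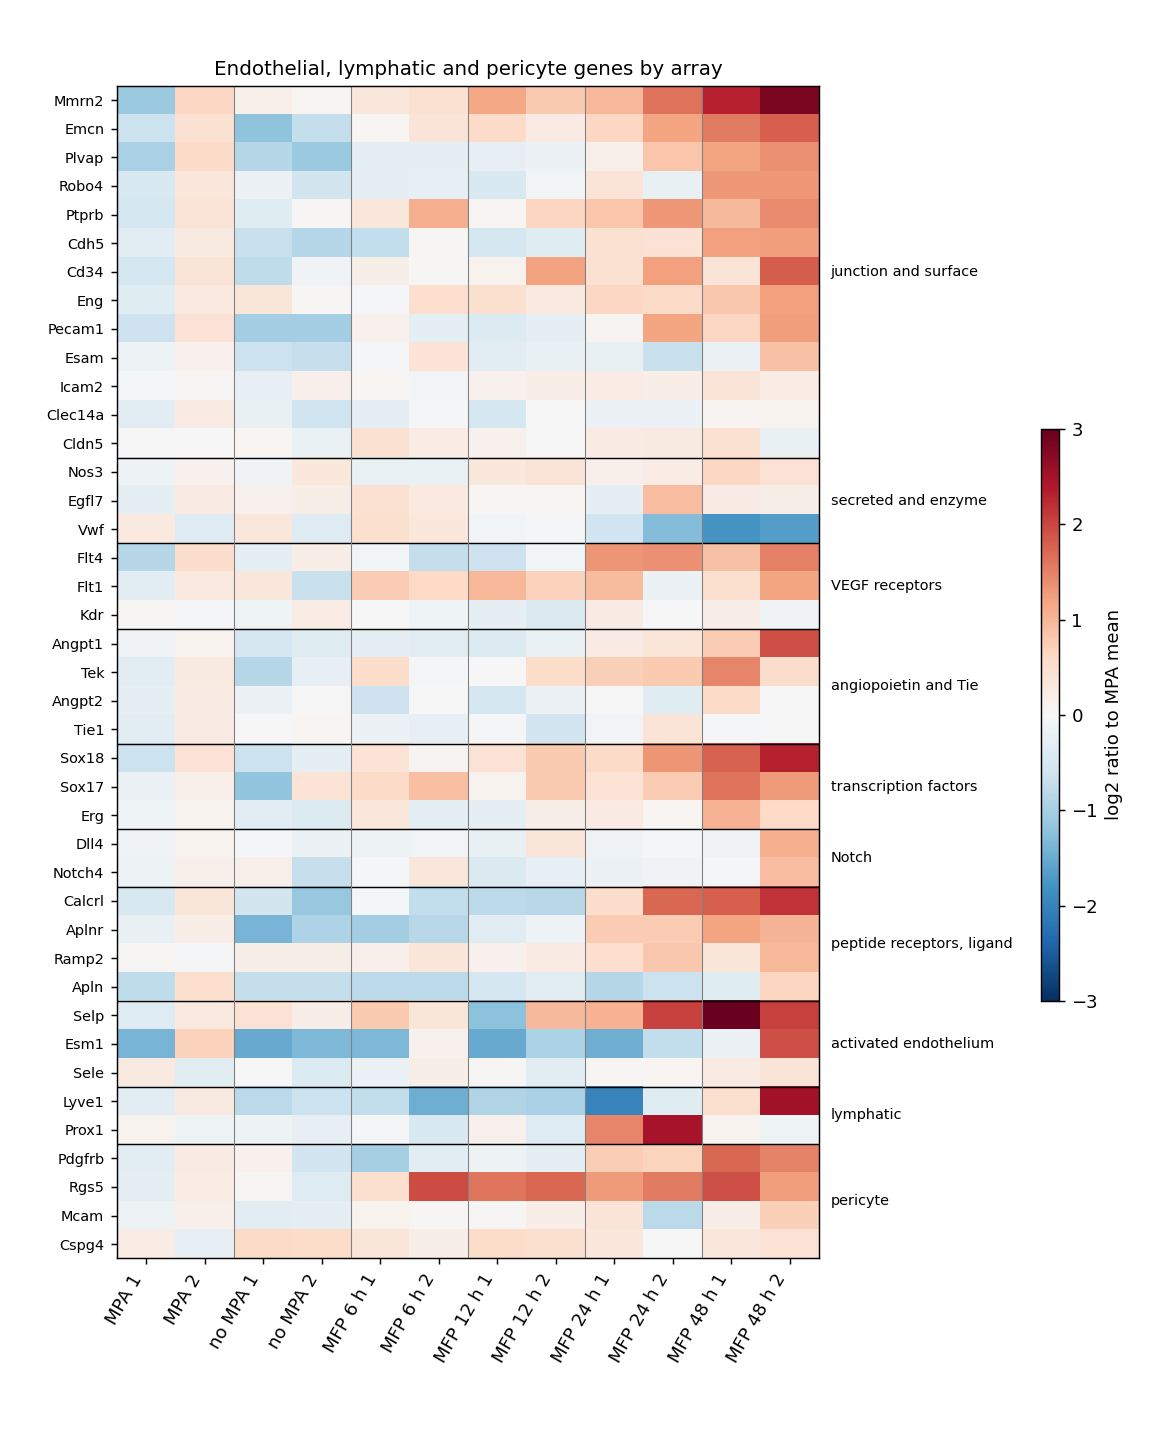
Log2 ratio to the MPA mean (colour, cut at -3 and 3) of the 41 genes (rows, ordered by role and by their change at 48 h of MFP) in the 12 arrays (columns). For most rows the MFP 48 h columns are the reddest, Vwf is blue there, and Prox1 is red in the MFP 24 h columns only.

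The MPA arrays differed from each other in these genes. MPA replicate 2 was above replicate 1 in 34 of 41 members, by a median of 0.56, while the other groups had medians between -0.02 and 0.14 for the same difference. The median over 15 measured fibroblast and matrix genes was -0.91 and 0.55 in the MPA arrays, and that over 16 macrophage genes was -0.82 and 0.52. Without MPA replicate 1, 1 member passed at 48 h against MPA, namely Mmrn2 (1.95), and 564 of all genes did. In that fit the lone array was taken to vary like the other groups. Leaving out MPA replicate 2 or either MFP 48 h array also changed which members passed, as given with each gene group below. The comparison with no MPA and the trend over the MFP times, given below, do not use the MPA means, though the former shares their spread in the fit.

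Promoter sequences from RefSeq (GRCm38.p6) were at hand for 24 of the 41 members. Shown are the 250 bases before the start of 3 genes that rose at 48 h, Emcn, Robo4 and Calcrl, and of Tie1, which did not pass, written 5′ to 3′ on the strand of the gene. Capitals mark AGGAAG or its reverse complement, a form of the core that ETS factors such as ERG bind, and in Calcrl also ACANNNTGT, a form of the element bound by progesterone and glucocorticoid receptors. No 2 marked motifs overlap.
Emcn, chr3:137340828-137341077, plus strand: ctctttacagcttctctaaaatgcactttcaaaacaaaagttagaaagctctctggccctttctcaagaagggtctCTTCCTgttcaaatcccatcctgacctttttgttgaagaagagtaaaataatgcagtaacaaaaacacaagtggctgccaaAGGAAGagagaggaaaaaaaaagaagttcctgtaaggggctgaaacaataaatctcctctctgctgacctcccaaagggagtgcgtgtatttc
Robo4, chr9:37401722-37401971, plus strand: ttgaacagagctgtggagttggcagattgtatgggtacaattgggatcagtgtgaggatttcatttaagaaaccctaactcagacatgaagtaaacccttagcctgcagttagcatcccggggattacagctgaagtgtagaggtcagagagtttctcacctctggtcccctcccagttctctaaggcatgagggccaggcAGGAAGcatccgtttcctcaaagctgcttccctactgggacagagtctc
Calcrl, chr2:84425267-84425516, minus strand: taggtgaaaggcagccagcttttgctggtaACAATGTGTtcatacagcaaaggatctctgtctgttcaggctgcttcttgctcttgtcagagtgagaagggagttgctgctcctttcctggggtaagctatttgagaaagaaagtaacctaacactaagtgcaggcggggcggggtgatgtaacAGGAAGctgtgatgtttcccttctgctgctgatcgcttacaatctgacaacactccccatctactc
Tie1, chr4:118489850-118490099, minus strand: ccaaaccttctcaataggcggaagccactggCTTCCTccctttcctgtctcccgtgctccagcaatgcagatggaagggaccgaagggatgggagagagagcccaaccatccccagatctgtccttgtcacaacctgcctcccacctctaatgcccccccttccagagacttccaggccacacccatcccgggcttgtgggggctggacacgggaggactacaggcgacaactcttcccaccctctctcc
Positions are counted from the start to the leftmost printed base of AGGAAG or its reverse complement. They were -174 and -93 in Emcn, -49 in Robo4, -66 in Calcrl and -219 in Tie1. Of the 6 members with a sequence that passed at 48 h against MPA, 5 held this motif. These were Calcrl, Emcn, Eng, Robo4 and Selp, and Rgs5 did not hold it. It was in 8 of the 18 others, where 29.5% of 32851 windows of this length held it. A member counted where any of its windows held the motif, with 29 windows for the 24 members. The shares are per single window, so the counts per member and these shares are not alike. The other ETS form, CCGGAA, was in 1 of the 24 members, Kdr, and in 12.0% of windows. The hypoxia response core ACGTG was in Clec14a alone (16.6% of windows), and ACANNNTGT in Calcrl and Notch4 (5.84% of windows). All motifs were searched on both strands. A match describes these letters and shows no binding.

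Of the 13 junction and surface genes 6 rose at 48 h against MPA and none fell, with a median of 1.17. Emcn encodes endomucin, a sialoglycoprotein of capillary and venous endothelium. Its values were -0.65 and 0.45 (MPA), -1.21 and -0.72 (no MPA), 0.06 and 0.39 (6 h), 0.57 and 0.25 (12 h), 0.61 and 1.19 (24 h) and 1.56 and 1.80 (48 h). Both 48 h arrays lay above every other array, and both no MPA arrays lay below both MPA arrays. The change at 48 h was 1.78 ± 0.36 against MPA (3.43-fold, adjusted p = 0.0132) and 2.64 ± 0.36 against no MPA (6.24-fold, adjusted p = 0.00268). Over the 12 arrays the members most like Emcn were Sox18 (Pearson r = 0.95), Plvap (0.94) and Pecam1 (0.90), as a description of arrays that share their groups.

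Mmrn2, multimerin 2, is a matrix protein of the endothelial surface that binds the C-type lectin CLEC14A. It had values of -1.12 and 0.62 (MPA), 0.16 and 0.06 (no MPA), 0.34 and 0.45 (6 h), 1.15 and 0.79 (12 h), 1.01 and 1.63 (24 h) and 2.32 and 2.83 (48 h). The 48 h arrays were the highest of the 12 and the MPA arrays did not overlap them. It rose by 2.82 ± 0.46 against MPA (7.07-fold), the largest change of the 41 members in this comparison, and its call held without each array of these groups in turn. Of its 4 probe sets 3 passed at 48 h against MPA, and the other stood at 0.10. Plvap, which forms the diaphragms of endothelial fenestrae, stood at -0.98 and 0.58 (MPA), -0.86 and -1.10 (no MPA), -0.26 and -0.26 (6 h), -0.24 and -0.17 (12 h), 0.16 and 0.83 (24 h) and 1.18 and 1.37 (48 h). Both 48 h arrays lay above all others, the nearest being 24 h replicate 2. It rose by 1.48 ± 0.42 against MPA and by 2.26 ± 0.42 against no MPA.

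Cdh5 encodes VE-cadherin, the adherens junction protein of endothelium. Its values were -0.32 and 0.26 (MPA), -0.67 and -0.85 (no MPA), -0.73 and 0.04 (6 h), -0.53 and -0.37 (12 h), 0.46 and 0.44 (24 h) and 1.22 and 1.26 (48 h). Only the 24 h and 48 h arrays and MPA replicate 2 were above 0.2, and the 48 h arrays were the highest. It rose by 1.27 ± 0.28 against MPA (adjusted p = 0.0175) and 2.00 ± 0.28 against no MPA. Robo4, a roundabout receptor that stabilises vessels, had -0.45 and 0.34 (MPA), -0.17 and -0.54 (no MPA), -0.30 and -0.25 (6 h), -0.47 and -0.07 (12 h), 0.40 and -0.23 (24 h) and 1.30 and 1.30 (48 h). Apart from 24 h replicate 1, at 0.40, every earlier MFP array lay below MPA replicate 2, and both 48 h arrays were the highest of the 12 (1.35 ± 0.30 against MPA and 1.66 ± 0.30 against no MPA). Eng, endoglin, a co-receptor for TGF-beta and BMP9, had -0.37 and 0.30 (MPA), 0.37 and 0.03 (no MPA), -0.05 and 0.50 (6 h), 0.47 and 0.29 (12 h), 0.63 and 0.58 (24 h) and 0.81 and 1.24 (48 h). It rose against MPA (1.06 ± 0.29) and did not pass against no MPA (0.82 ± 0.29, adjusted p = 0.0937).

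Pecam1, the junction protein CD31, which platelets and leukocytes also carry, stood at -0.61 and 0.43 (MPA), -1.02 and -1.01 (no MPA), 0.13 and -0.27 (6 h), -0.42 and -0.30 (12 h), 0.09 and 1.18 (24 h) and 0.61 and 1.26 (48 h). Both no MPA arrays were the lowest of the 12. The difference of 48 h from no MPA passed (1.95 ± 0.41), and that from MPA did not (1.03 ± 0.41, adjusted p = 0.138). Ptprb, the endothelial phosphatase VE-PTP that acts on TIE2 and VE-cadherin, had -0.52 and 0.38 (MPA), -0.36 and 0.04 (no MPA), 0.34 and 1.08 (6 h), 0.06 and 0.64 (12 h), 0.84 and 1.30 (24 h) and 0.98 and 1.43 (48 h). Both no MPA arrays lay below every MFP array, and so did MPA replicate 1. The 48 h difference from no MPA passed (1.37 ± 0.37, adjusted p = 0.0397). Against MPA it was 1.28 ± 0.37 (adjusted p = 0.0516).

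The other 5 surface genes passed in none of these tests. The progenitor and endothelial antigen Cd34 stood at 1.17 ± 0.53 against MPA, with 0.38 and 1.81 in the 48 h arrays. The tight junction genes Cldn5 (0.11 ± 0.24) and Esam (0.35 ± 0.33), the adhesion molecule gene Icam2 (0.30 ± 0.20) and the lectin gene Clec14a (0.12 ± 0.26) had smaller changes. The other Clec14a probe set stood at 0.58 ± 0.17 against MPA and did not pass (limma, adjusted p = 0.059 among probe sets). For Cldn5, the main claudin of endothelium, the 95% interval of the change ran from -0.43 to 0.65.
Among the genes of this role, calls were lost when single arrays were left out. Against MPA these were Emcn, Plvap, Cdh5, Robo4 and Eng without MFP 48 h replicate 2 (values 0.85 to 1.66, adjusted p = 0.0617 to 0.18), Emcn, Plvap, Cdh5, Robo4 and Eng without MPA replicate 1 (values 0.70 to 1.23, adjusted p = 0.0809 to 0.229) and Plvap, Cdh5, Robo4 and Eng without MFP 48 h replicate 1 (values 1.28 to 1.57, adjusted p = 0.0653 to 0.117). Against no MPA they were Mmrn2, Pecam1 and Ptprb without no MPA replicate 1 (values 1.17 to 2.52, adjusted p = 0.0537 to 0.207), Mmrn2, Plvap, Robo4, Pecam1 and Ptprb without no MPA replicate 2 (values 1.47 to 2.42, adjusted p = 0.0545 to 0.0951), Pecam1 and Ptprb without MFP 48 h replicate 2 (values 1.14 to 1.63, adjusted p = 0.0786 to 0.176) and Ptprb without MFP 48 h replicate 1 (value 1.59, adjusted p = 0.0769). Emcn and Cdh5 kept their call against no MPA in each of these fits.

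**Figure D2:**
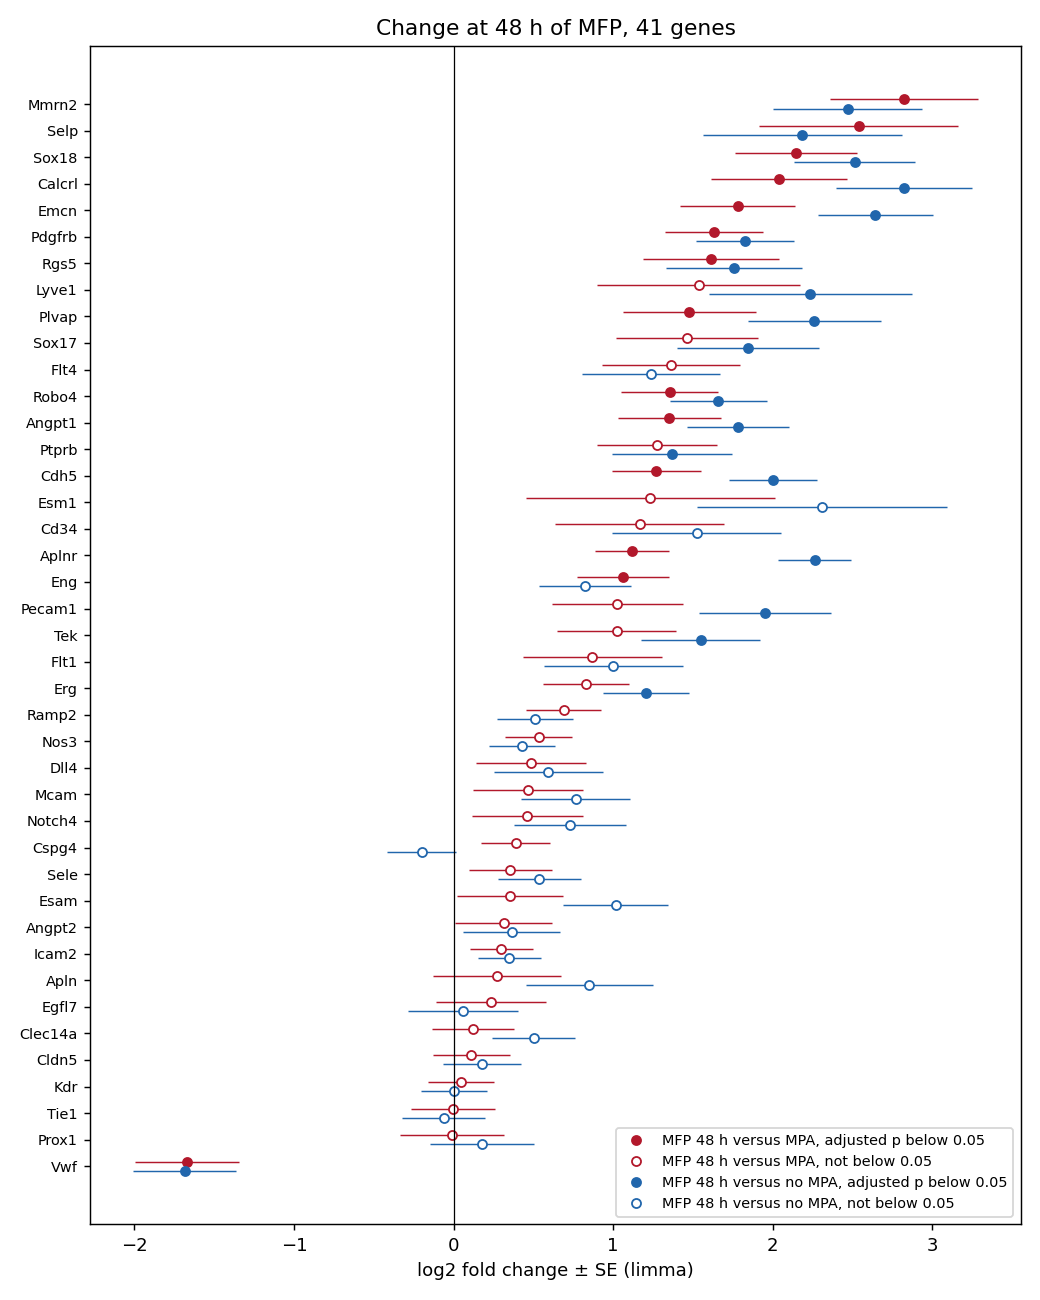
Log2 fold change at 48 h of MFP with its standard error (limma, 2 arrays per group) for the 41 genes, against MPA (red) and against no MPA (blue). Filled points have an adjusted p below 0.05. Mmrn2 is highest against MPA at 2.82, Vwf is the lowest at -1.67, and Kdr, Tie1 and Prox1 lie near 0.

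Vwf encodes von Willebrand factor, the clotting protein that endothelial cells store in granules and release when activated. It went the other way. Its values were 0.30 and -0.39 (MPA), 0.34 and -0.39 (no MPA), 0.47 and 0.33 (6 h), -0.07 and -0.06 (12 h), -0.58 and -1.31 (24 h) and -1.76 and -1.66 (48 h). Both 48 h arrays lay below every other array, the 24 h arrays were next, and the other 8 arrays lay between -0.39 and 0.47. Vwf stood at -0.90 ± 0.32 at 24 h (adjusted p = 0.12) and fell at 48 h, by 3.18-fold against MPA (-1.67 ± 0.32, adjusted p = 0.0116) and by 3.21-fold against no MPA (-1.68 ± 0.32, adjusted p = 0.00923). The array has 1 probe set for it, so the fall rests on that probe set. Its Pearson correlation with Emcn over the 12 arrays was -0.80, the lowest of Emcn with any member, and the member most like Vwf was Cspg4 (r = 0.15). Calls were lost for Vwf without MFP 48 h replicate 1 (value -1.62, adjusted p = 0.0555) and Vwf without MPA replicate 1 (value -1.32, adjusted p = 0.0825) against MPA, and for Vwf without MFP 48 h replicate 1 (value -1.63, adjusted p = 0.0507) and Vwf without no MPA replicate 1 (value -1.32, adjusted p = 0.0773) against no MPA. Of the other secreted and enzyme genes, Egfl7, a secreted endothelial factor, stood at 0.23 ± 0.34 and Nos3, the endothelial nitric oxide synthase, at 0.53 ± 0.21 against MPA. Nos3 passed between 48 h and 6 h of MFP (0.72 ± 0.21, adjusted p = 0.0496), a call lost whichever array of these groups was left out (0.63 to 0.81, adjusted p = 0.0972 to 0.198).

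None of the 3 VEGF receptor genes passed at 48 h against MPA, and Flt4 passed in the trend over the MFP times. Kdr encodes the main signalling receptor for VEGF-A on blood endothelium. Its 12 values ran from -0.44 to 0.24, and the difference at 48 h was 0.05 ± 0.21 against MPA with a 95% interval from -0.41 to 0.51. Flt1 encodes a high-affinity receptor that also acts as a decoy. Its probe set of largest spread was above both MPA arrays in every 6 h, 12 h and 48 h array. The 48 h change of that probe set did not pass (0.87 ± 0.44, adjusted p = 0.236). The other Flt1 probe sets stood between 0.19 and 0.69 at 48 h against MPA, with slopes between -0.20 and -0.14. None of them passed in these. Flt4, the receptor for VEGF-C and VEGF-D, which lymphatic endothelium carries most, had -0.85 and 0.53 (MPA), -0.26 and 0.20 (no MPA), -0.09 and -0.72 (6 h), -0.62 and -0.08 (12 h), 1.33 and 1.38 (24 h) and 0.89 and 1.52 (48 h). It was low through 12 h and high in all 4 later arrays. It missed the threshold at 24 h (1.52 ± 0.43, adjusted p = 0.0573) and 48 h (1.36 ± 0.43, adjusted p = 0.0664) against MPA. The other Flt4 probe set stood at 0.43 at 24 h and 0.53 at 48 h against MPA, with a slope of 0.36, and passed in none of these.

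Among the ligands and co-receptors around these receptors, a list of 26 signalling partners of vessels had 6 rises and 1 fall at 48 h against MPA, with a median of 0.52. The FLT4 ligand gene Vegfc rose (2.34 ± 0.52), as did the VEGF co-receptor genes Nrp1 (2.15 ± 0.18) and Nrp2 (2.34 ± 0.50) and the arterial ephrin gene Efnb2 (2.24 ± 0.30). The gene of the Notch ligand Jag1 fell (-1.26 ± 0.29). These genes are also made by cells other than those of vessels.

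Of the 4 angiopoietin and Tie genes 1 rose against MPA and 2 against no MPA. Angpt1, the ligand with which mural cells keep vessels quiet, had values of -0.10 and 0.09 (MPA), -0.50 and -0.37 (no MPA), -0.29 and -0.32 (6 h), -0.41 and -0.20 (12 h), 0.24 and 0.37 (24 h) and 0.75 and 1.94 (48 h). The 48 h arrays stood well apart from each other and both were above the rest. It rose by 1.35 ± 0.32 against MPA and 1.78 ± 0.32 against no MPA. Its second probe set stood at 0.09 against MPA and 0.18 against no MPA, with a slope of -0.01 per doubling of the MFP hours. That probe set passed in none of these, so these calls for Angpt1 rest on the probe set shown. Tek encodes TIE2, the angiopoietin receptor, and had -0.32 and 0.26 (MPA), -0.85 and -0.26 (no MPA), 0.53 and -0.03 (6 h), -0.01 and 0.56 (12 h), 0.72 and 0.79 (24 h) and 1.47 and 0.52 (48 h). It passed against no MPA (1.55 ± 0.37) but not against MPA (1.02 ± 0.37, adjusted p = 0.105). Angpt2, the antagonist that destabilises vessels (0.31 ± 0.30), and the orphan receptor gene Tie1 (0.00 ± 0.26, 95% interval -0.58 to 0.58) did not pass. The second Angpt2 probe set went the other way, at -0.55 ± 0.24 against MPA, and did not pass. Calls were lost for Angpt1 without MFP 48 h replicate 2 (value 0.76, adjusted p = 0.0896), Angpt1 without MPA replicate 1 (value 1.25, adjusted p = 0.124) and Angpt1 without MPA replicate 2 (value 1.45, adjusted p = 0.0555) against MPA, and for Angpt1 and Tek without no MPA replicate 1 (values 1.25 to 1.72, adjusted p = 0.0546 to 0.158), Tek without MFP 48 h replicate 1 (value 1.08, adjusted p = 0.147) and Tek without no MPA replicate 2 (value 1.85, adjusted p = 0.0506) against no MPA.

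All 3 transcription factor genes rose against no MPA and 1, Sox18, rose against MPA. Sox18, which acts in vessel growth and at the start of lymphatic development, had -0.64 and 0.44 (MPA), -0.64 and -0.30 (no MPA), 0.40 and 0.09 (6 h), 0.42 and 0.78 (12 h), 0.57 and 1.32 (24 h) and 1.78 and 2.31 (48 h). Its mean was higher at each later MFP time and both 48 h arrays were above the rest. It rose by 2.14 ± 0.38 against MPA (4.42-fold, adjusted p = 0.00851). Sox17, of arterial endothelium, had -0.18 and 0.16 (MPA), -1.19 and 0.40 (no MPA), 0.59 and 0.91 (6 h), 0.09 and 0.78 (12 h), 0.43 and 0.76 (24 h) and 1.63 and 1.28 (48 h). The no MPA arrays lay far apart, and both 48 h arrays were above the rest. Its changes were 1.46 ± 0.44 against MPA (adjusted p = 0.0576) and 1.85 ± 0.44 against no MPA (adjusted p = 0.0236), while its second probe set stood at 0.31 against MPA and 0.35 against no MPA (adjusted p = 0.656 among probe sets). Erg, the ETS factor that maintains endothelial identity, had -0.13 and 0.12 (MPA), -0.34 and -0.42 (no MPA), 0.31 and -0.30 (6 h), -0.30 and 0.16 (12 h), 0.25 and 0.05 (24 h) and 1.05 and 0.60 (48 h). Its change was 0.83 ± 0.27 against MPA (adjusted p = 0.0718) and 1.21 ± 0.27 against no MPA. Calls against MPA were lost for Sox18 without MPA replicate 1 (value 1.60, adjusted p = 0.0565), and Sox18 kept its call against no MPA in each such fit. Calls against no MPA were lost for Sox17 and Erg without MFP 48 h replicate 1 (values 0.98 to 1.68, adjusted p = 0.106 to 0.114), Sox17 without MFP 48 h replicate 2 (value 2.02, adjusted p = 0.0581), Sox17 and Erg without no MPA replicate 1 (values 1.05 to 1.25, adjusted p = 0.0788 to 0.131) and Erg without no MPA replicate 2 (value 1.17, adjusted p = 0.0914).

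Of the 4 genes of peptide receptors and their ligand 2 rose at 48 h against MPA, with a median of 0.90. Aplnr, the receptor for apelin on sprouting and venous endothelium, had -0.22 and 0.19 (MPA), -1.40 and -0.92 (no MPA), -1.04 and -0.82 (6 h), -0.32 and -0.16 (12 h), 0.76 and 0.77 (24 h) and 1.18 and 1.02 (48 h). The no MPA and 6 h arrays lay below all others, and all 4 arrays of 24 h and 48 h lay above both MPA arrays. It rose at 48 h by 1.12 ± 0.23 against MPA and by 2.26 ± 0.23 against no MPA (4.80-fold, adjusted p = 0.00145). Its second probe set stood at 0.55 against MPA and 0.28 against no MPA, with a slope of 0.08 per doubling of the MFP hours. That probe set passed in none of these, so the calls for Aplnr rest on the probe set shown. Calcrl, the receptor that adrenomedullin uses on endothelium, had -0.47 and 0.35 (MPA), -0.54 and -1.14 (no MPA), -0.05 and -0.74 (6 h), -0.79 and -0.84 (12 h), 0.53 and 1.72 (24 h) and 1.79 and 2.17 (48 h). The 12 h arrays were below both MPA arrays and the 48 h arrays above all others, and it rose by 2.04 ± 0.42 against MPA and 2.82 ± 0.42 against no MPA (7.07-fold). Ramp2, which pairs with Calcrl to make that receptor, stood at 0.69 ± 0.24 (adjusted p = 0.088), and the adrenomedullin gene Adm at -1.46 ± 0.59 (adjusted p = 0.14). Apln, the apelin gene, stood at 0.27 ± 0.40, with -0.36 and 0.64 in the 48 h arrays. Against MPA calls were lost for Aplnr without MFP 48 h replicate 1 (value 1.04, adjusted p = 0.0699), Aplnr and Calcrl without MPA replicate 1 (values 0.92 to 1.63, adjusted p = 0.0949 to 0.103) and Calcrl without MFP 48 h replicate 2 (value 1.85, adjusted p = 0.0712). Both genes kept their call against no MPA when single arrays were left out.

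Dll4, the Notch ligand of endothelial tip cells (0.49 ± 0.34), and Notch4, a Notch receptor of endothelium (0.46 ± 0.35), did not pass at 48 h against MPA. For both, the 48 h replicates differed, at -0.11 and 1.07 for Dll4 and -0.02 and 0.93 for Notch4.

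Of the 3 genes of activated endothelium 1 rose. Selp encodes P-selectin, which is kept in the same granules as von Willebrand factor and brings leukocytes to the vessel wall. Its values were -0.38 and 0.30 (MPA), 0.42 and 0.20 (no MPA), 0.79 and 0.36 (6 h), -1.22 and 0.97 (12 h), 1.04 and 2.05 (24 h) and 2.96 and 2.04 (48 h). The 12 h arrays lay far apart, and all 4 arrays of 24 h and 48 h were above both MPA arrays. It rose at 48 h by 2.54 ± 0.62 against MPA and 2.19 ± 0.62 against no MPA, and all 3 of its probe sets passed against MPA. A probe set that is not shown passed at 24 h too (2.30). Platelets also carry P-selectin, and of 10 measured platelet and megakaryocyte genes 2 rose at 48 h against MPA, Pf4 (3.23 ± 0.62) and Itgb3 (1.67 ± 0.41). That list had medians of 0.62 and 0.38 at 48 h of MFP, and of 0.01 and -0.01 with MPA. Their part in the result was not tested. E-selectin, the product of Sele, appears on endothelium under cytokines, and its gene stood at 0.36 ± 0.26. Esm1, a gene of tip cells, ran from -1.52 to 1.94 over the 12 arrays and did not pass (1.23 ± 0.78). Calls were lost for Selp without MFP 48 h replicate 1 (value 2.08, adjusted p = 0.141) and Selp without MPA replicate 1 (value 2.19, adjusted p = 0.153) against MPA, and for Selp without MFP 48 h replicate 1 (value 1.73, adjusted p = 0.225), Selp without MFP 48 h replicate 2 (value 2.64, adjusted p = 0.0637), Selp without no MPA replicate 1 (value 2.30, adjusted p = 0.149) and Selp without no MPA replicate 2 (value 2.07, adjusted p = 0.18) against no MPA.

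The lymphatic genes Prox1 and Lyve1 did not move together, and the array values of both are given after they had been seen. Prox1, the factor that sets lymphatic identity, had 0.11 and -0.12 (MPA), -0.14 and -0.24 (no MPA), -0.03 and -0.45 (6 h), 0.13 and -0.39 (12 h), 1.47 and 2.47 (24 h) and 0.10 and -0.13 (48 h). It was high in the 24 h arrays alone. It rose at 24 h by 1.97 ± 0.32 (adjusted p = 0.00586), the only member whose chosen probe set passed at that time, when 8.74% of all genes passed, 4.55% higher and 4.20% lower. After quantile normalization it stood at 1.23 at 24 h (adjusted p = 0.101), and in the fit on the 4 arrays of both groups its adjusted p was 0.0938. At 48 h it stood at -0.01 ± 0.32 against MPA, below 24 h by 1.98 on the log2 scale (adjusted p = 0.0104, a comparison added after seeing the data in which 2.35% of all genes passed). All 3 of its probe sets were higher at 24 h, by 1.97, 1.58 and 0.78. Hepatocytes also express Prox1. The median over 15 measured hepatocyte genes was 3.56 and 4.18 in the 24 h arrays and between -2.66 and 1.20 in the other 10, and 13 of the 15 rose at 24 h against MPA. The part of liver RNA in the rise of Prox1 was not tested. Of 7 measured genes of liver sinusoid endothelium 1, Clec4g (1.49 ± 0.32), rose at 24 h.

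Lyve1, a hyaluronan receptor of lymphatic and liver sinusoid endothelium that some tissue macrophages also carry, had -0.34 and 0.27 (MPA), -0.81 and -0.65 (no MPA), -0.73 and -1.46 (6 h), -0.89 and -0.97 (12 h), -2.01 and -0.37 (24 h) and 0.49 and 2.52 (48 h). On the probe set shown it was below both MPA arrays in all 8 arrays from no MPA to 24 h. At 48 h it was above them, and the replicates lay far apart. It passed at 48 h against no MPA (2.23 ± 0.64, adjusted p = 0.046) and not against MPA (1.54 ± 0.64, adjusted p = 0.15). The call was lost for Lyve1 without MFP 48 h replicate 2 (value 1.22, adjusted p = 0.248), Lyve1 without no MPA replicate 1 (value 2.16, adjusted p = 0.184) and Lyve1 without no MPA replicate 2 (value 2.31, adjusted p = 0.147). Of 16 measured macrophage genes 14 rose at 48 h against MPA. The macrophage median was 1.91 in both 48 h arrays, and the part of macrophages in the Lyve1 result was not tested. Of the 7 other lymphatic genes on a further list 3 rose at 48 h against MPA, the integrin gene Itga9 (2.82 ± 0.54), the valve factor gene Foxc2 (1.92 ± 0.50) and Pdpn (1.90 ± 0.39), which fibroblasts also express.

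Of the 4 pericyte genes 2 rose at 48 h against MPA. Pdgfrb, the PDGF-B receptor, had -0.31 and 0.26 (MPA), 0.12 and -0.56 (no MPA), -0.99 and -0.30 (6 h), -0.14 and -0.28 (12 h), 0.74 and 0.67 (24 h) and 1.71 and 1.49 (48 h). All 4 arrays of 24 h and 48 h were above both MPA arrays. It rose at 48 h by 1.63 ± 0.31 against MPA and 1.83 ± 0.31 against no MPA (adjusted p = 0.00555). Fibroblasts express it as well, and of 15 measured fibroblast and matrix genes 13 rose at 48 h against MPA (list median 1.63 and 1.81 in the 48 h arrays). Their part in its rise was not tested. Rgs5, a G-protein signalling regulator typical of pericytes, had another course, with -0.27 and 0.23 (MPA), 0.05 and -0.38 (no MPA), 0.48 and 1.95 (6 h), 1.61 and 1.72 (12 h), 1.27 and 1.56 (24 h) and 1.93 and 1.26 (48 h). It lay above both MPA arrays in all 8 MFP arrays, and no later group mean exceeded that at 12 h. Its change was 1.23 ± 0.43 at 6 h (adjusted p = 0.205) and 1.69 ± 0.43 at 12 h (adjusted p = 0.0565). It was 1.44 ± 0.43 at 24 h (adjusted p = 0.0666) and 1.61 ± 0.43 at 48 h (adjusted p = 0.0354), where 3 of its 4 probe sets passed. In the 6 h arrays the probe sets that are not shown stood between 0.54 and 1.38. At 24 h 2 of the probe sets that are not shown passed (0.94 and 1.29). Cspg4, the proteoglycan NG2 (0.39 ± 0.22), and Mcam, the adhesion molecule CD146, which endothelium shares (0.47 ± 0.34), did not pass. Calls were lost for Pdgfrb and Rgs5 without MFP 48 h replicate 1 (values 1.28 to 1.52, adjusted p = 0.0533 to 0.179), Pdgfrb and Rgs5 without MPA replicate 1 (values 1.35 to 1.36, adjusted p = 0.0736 to 0.187), Rgs5 without MFP 48 h replicate 2 (value 1.95, adjusted p = 0.054) and Rgs5 without MPA replicate 2 (value 1.86, adjusted p = 0.0576) against MPA, and for Rgs5 without MFP 48 h replicate 1 (value 1.42, adjusted p = 0.141), Rgs5 without no MPA replicate 1 (value 1.97, adjusted p = 0.0763) and Rgs5 without no MPA replicate 2 (value 1.55, adjusted p = 0.14) against no MPA.
Of 12 other mural genes 5 rose and 1 fell at 48 h against MPA. Those that rose most were the contractile genes Acta2 (2.88 ± 0.64) and Tagln (2.30 ± 0.62), the channel subunit gene Abcc9 (1.67 ± 0.46) and Pdgfra (1.47 ± 0.29), a fibroblast receptor gene. Ndufa4l2 fell (-0.94 ± 0.25).

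**Figure D3:**
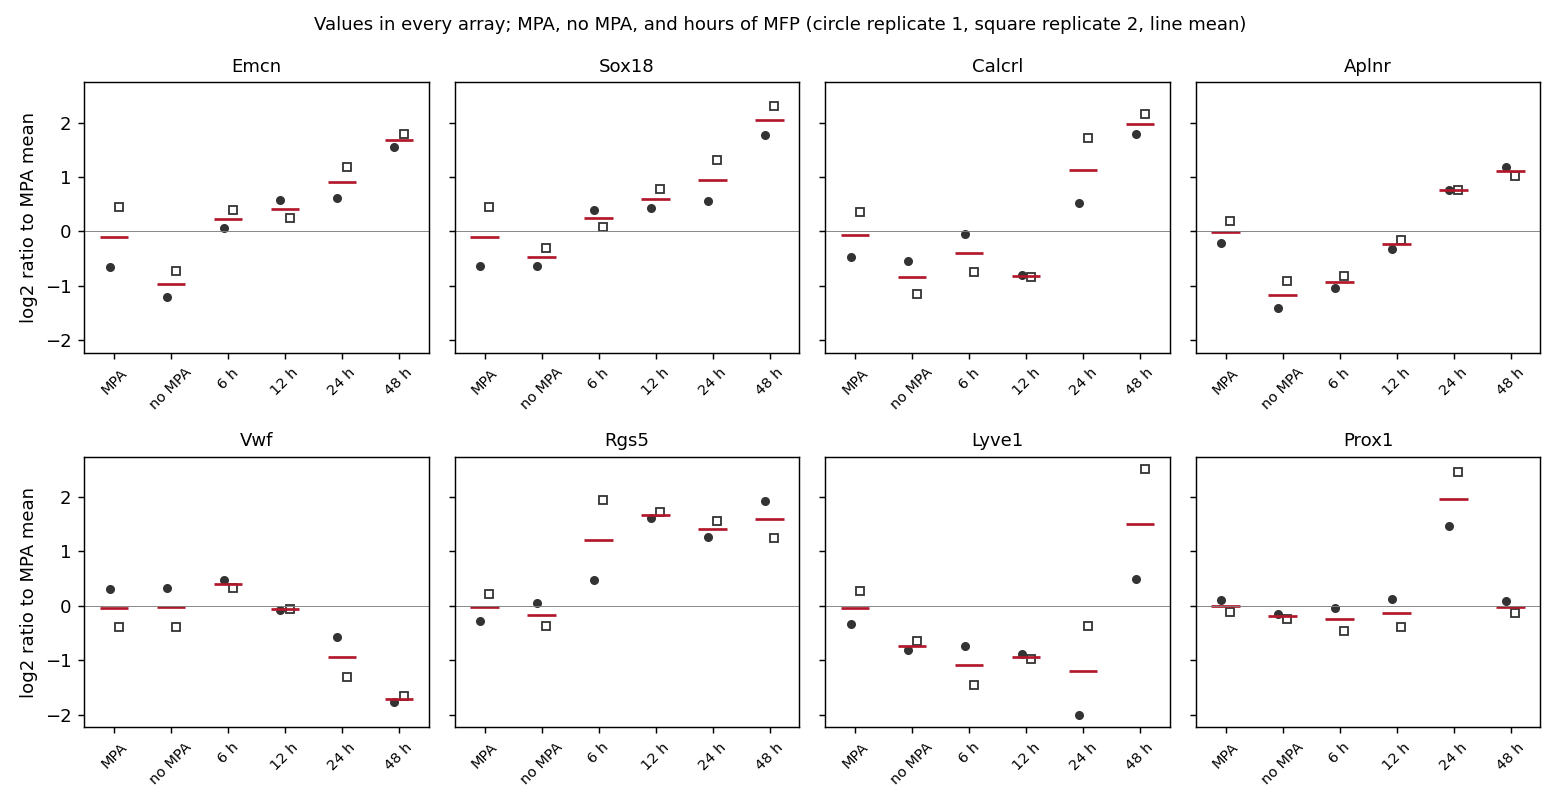
Log2 ratio to the MPA mean (vertical axis) of 8 members in each array of the 6 groups (horizontal axis, hours of MFP); circles are replicate 1, squares replicate 2 and red lines the group mean. Emcn, Sox18, Calcrl and Aplnr are highest at 48 h, and Vwf is lowest there. Rgs5 is above both MPA arrays from 6 h on, and Prox1 is high at 24 h, at 1.47 and 2.47.

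The course over time was tested within the 8 MFP arrays, as a slope per doubling of the hours from 6 h to 48 h. Of the 41 members 11 had a rising slope and 1 a falling one, where 11.2% of all genes passed, 6.80% rising and 4.39% falling. The slope was steepest upward among those that passed for Calcrl (0.91 ± 0.19), followed by Pdgfrb (0.77 ± 0.08, adjusted p = 0.00123), Aplnr (0.71 ± 0.07, adjusted p = 0.00084) and Mmrn2 (0.69 ± 0.10). Flt4 (0.65 ± 0.15), Sox18 (0.57 ± 0.11), Cdh5 (0.57 ± 0.11), Angpt1 (0.56 ± 0.13), Plvap (0.53 ± 0.09), Robo4 (0.51 ± 0.12) and Emcn (0.49 ± 0.09) also rose with time. The falling slope was that of Vwf (-0.72 ± 0.08, adjusted p = 0.00138). Rgs5, which already lay above both MPA arrays at 6 h, had a slope of 0.09 ± 0.14 that did not pass. For Angpt1 the second probe set had a slope of -0.01 ± 0.08 and did not pass either. Calls in the trend were lost for Cdh5, Robo4, Flt4 and Calcrl without MFP 48 h replicate 2 (values 0.43 to 0.83, adjusted p = 0.0502 to 0.0984), Robo4 and Calcrl without MFP 48 h replicate 1 (values 0.43 to 0.92, adjusted p = 0.0534 to 0.101) and Flt4, Angpt1 and Calcrl without MFP 6 h replicate 2 (values 0.61 to 0.94, adjusted p = 0.0502 to 0.0892). The slopes of Aplnr, Pdgfrb, Mmrn2, Sox18, Plvap, Emcn and Vwf passed without each of the 8 arrays in turn.

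On the chosen probe sets no member passed at 6 h against MPA, where 1.25% of all genes did (0.313% higher and 0.940% lower). None passed at 12 h, where 4.28% of all genes did, 1.66% higher and 2.62% lower. The Rgs5 probe sets that are not shown stood between 0.54 and 1.38 in the 6 h arrays and between -0.24 and 0.21 in the MPA arrays. At an unadjusted p below 0.05 there were 2 members and 2725 of all genes at 6 h, and 3 members and 3303 of all genes at 12 h. The median change over the members was 0.02 at 6 h, -0.06 at 12 h and 0.34 at 24 h, and 31 of 41 changes were above 0 at 24 h. In no MPA against MPA no gene passed (0% of all genes), and 1198 genes and 5 members had an unadjusted p below 0.05. There the members' median was -0.19, and 30 of 41 values were below 0, the lowest being Aplnr (-1.14 ± 0.23, adjusted p = 0.268). Between 48 h and 6 h of MFP 13 members rose and Vwf fell, where 11.7% of all genes passed, 7.07% higher and 4.58% lower. With single arrays left out 4 to 11 members passed, and Aplnr, Cdh5, Pdgfrb and Vwf did so in each such fit. By limma after quantile normalization 0 passed, with 9 at an unadjusted p below 0.05.

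A further list of 26 endothelial genes, of which 25 were measured, had 5 rises and no fall at 48 h against MPA, with a median of 0.65. They included the leukocyte adhesion gene Vcam1 (2.28 ± 0.30), the anticoagulant receptor gene Thbd (1.78 ± 0.26), the ETS factor gene Fli1 (1.77 ± 0.47) and the adhesion receptor gene Adgrl4 (1.64 ± 0.34). Leukocytes express Fli1 as well. Of the members themselves 20 passed in none of the comparison with MPA, the comparison with no MPA and the trend. Their changes at 48 h ran from -0.01 to 1.23 against MPA, with adjusted p-values of 0.088 or more.

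Probe sets of a gene did not always move alike. The value shown for a gene is that of the probe set with the largest spread over the 12 arrays, which favours changing ones where there are several, as for 22 of the 41 members. Tested one by one among all 34958 probe sets, 21 of the 76 rose at 48 h against MPA and 1 fell (10.6% of all passed, 5.20% higher and 5.35% lower). Cdh5, Eng and Pdgfrb each had a second probe set that did not pass against MPA, at 0.85, 0.61 and 0.85. Calcrl had 2 probe sets that rose, by 2.04 and 1.40, and 1 at -0.19. Erg passed with its other probe set (0.79, adjusted p = 0.0356) and not with the one shown (adjusted p = 0.0678 in that fit). For Lyve1 the other probe set stood at 1.94 against MPA (adjusted p = 0.0503) and passed against no MPA (2.76, adjusted p = 0.0125). Its values were -1.20 and 0.65 in the MPA arrays and 1.33 and 2.01 in the 48 h arrays. From no MPA to 24 h, only no MPA replicate 1 (-1.46) and 24 h replicate 1 (-1.44) were below both MPA arrays there.

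Marker genes of other organs and a measure of RNA breakage also differed between the arrays. Exocrine pancreas genes (15 measured) had medians of 6.16 and 4.47 at 6 h, 0.15 and 1.21 in the 12 h arrays, 0.83 and 6.82 in those of 24 h, and 4.71 and 5.57 in those of 48 h. Their part in the results was not tested. The skeletal muscle median was 4.24 in MFP 48 h replicate 1 and 0.11 in replicate 2, and the members' median was 0.57 and 1.07 in these arrays. The 3′ minus 5′ difference of the Actb control probe sets, which grows as RNA breaks, was -0.07 and 0.05 in the MPA arrays, -0.09 and 0.14 without MPA, and 0.20, 0.13, 0.34, 0.36, 0.35, 0.50, 0.47 and 0.59 in the MFP arrays in order of time. It thus moved with the hours of MFP, and its part in the changes was not tested. The median over 15 measured luminal epithelial genes was -0.30 and -0.10 at 48 h and 0.02 and -0.02 with MPA.

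**Figure D4:**
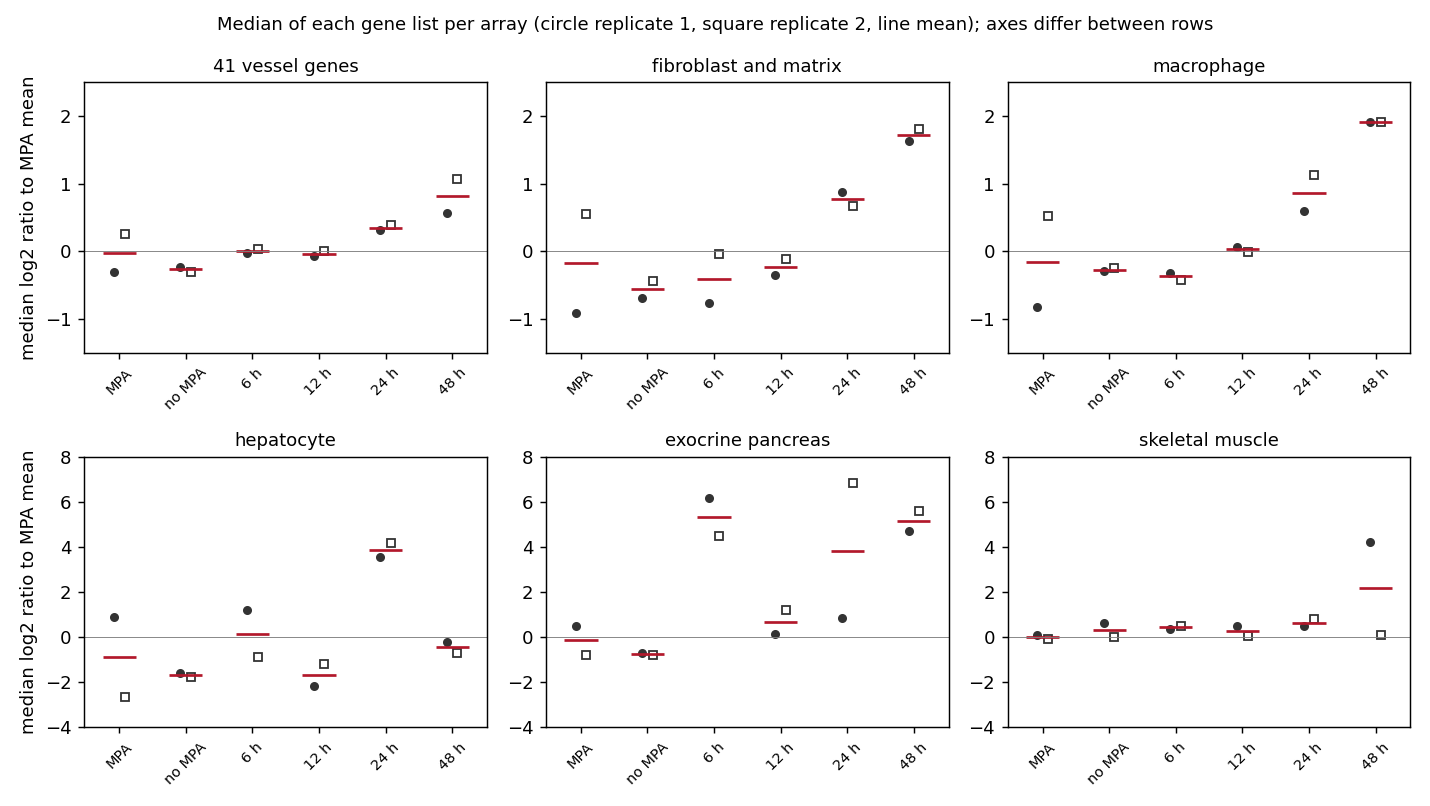
Median log2 ratio to the MPA mean (vertical axis) of the 41 vessel genes and 5 marker lists in each array (horizontal axis, the 6 groups); circles are replicate 1, squares replicate 2, red lines the mean, and the axes differ between the rows. The vessel, fibroblast and macrophage medians are highest at 48 h, the hepatocyte median at 24 h (3.56 and 4.18), and the skeletal muscle median in 1 array of 48 h (4.24).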

How the data were processed

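The deposited values are log2 values of 45101 probe sets in 12 arrays; the authors used GCRMA, per the submitters' processing notes, with its version not given in the sources used here. For 45099 probe sets the linear values of both MPA arrays average 1 within 0.0001, which makes the deposited log2 values ratios to the mean of those arrays. Hence no filter on level was used. Per the labels 200 ng of RNA went into each labelling.

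Of the probe sets 34958 have 1 symbol in the platform annotation and 932 several, which were left out. A gene was represented by its probe set of largest SD across all arrays (18194 genes). limma 3.58.1 in R 4.3.3 fitted 1 mean per group over all 12 arrays, so that the spread is shared (6 residual and 4.21 prior degrees of freedom), with Benjamini-Hochberg adjustment at 0.05 over all genes. The trend was a slope on log2 of hours in the 8 MFP arrays. No batch is labelled. The fits were tested on simulated data with normal noise and added changes. At 48 h against MPA 22.4% of added changes of 1 on the log2 scale passed, and 77.7% of those of 2. In the trend 30.6% and 86% passed for such changes from 6 h to 48 h. Of the genes that passed, 5.05% and 5.43% had no added change. A true change near 1 would thus often not pass.

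Members, lists and the rule for named genes were chosen with earlier results of these data known. Values in all arrays are printed for the first 20 members, by smallest adjusted p, that passed against MPA or no MPA at 48 h or in the trend. Of each further list, up to 4 genes per direction that passed at 48 h against MPA are named; others named were chosen after their values were seen. Alternatives were the mean of probe sets, centred arrays, quantile normalization, array weights, the 50% of genes with the larger SD, the fit on 4 arrays, hours unlogged and leaving out single arrays. The number of arrays limits the precision.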

Additional observations from a re-analysis of the deposited data

Results flagged for a closer look

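Effects of MFP at 48 h and at 6 h, both against MPA, differed for 14 members by the direct test between these times (limma, adjusted p below 0.05). The difference was 2.60 for Lyve1, 2.38 for Calcrl, 2.25 for Pdgfrb, 2.18 for Mmrn2, 2.04 for Aplnr, 1.80 for Sox18, 1.65 for Angpt1, 1.61 for Flt4, 1.59 for Cdh5, 1.58 for Robo4, 1.54 for Plvap, 1.45 for Emcn, 0.72 for Nos3 and -2.11 for Vwf. Leaving out single arrays ended calls for Lyve1, Mmrn2, Sox18, Flt4, Plvap, Emcn and Nos3 without MFP 48 h replicate 2 (values 0.81 to 1.93, adjusted p = 0.0819 to 0.185), Lyve1, Mmrn2, Sox18, Angpt1, Flt4, Robo4, Plvap, Emcn and Nos3 without MFP 6 h replicate 1 (values 0.71 to 2.96, adjusted p = 0.0547 to 0.176), Lyve1, Calcrl, Mmrn2, Sox18, Angpt1, Flt4, Robo4, Plvap, Emcn and Nos3 without MFP 6 h replicate 2 (values 0.73 to 2.23, adjusted p = 0.0565 to 0.216) and Flt4, Plvap, Emcn and Nos3 without MFP 48 h replicate 1 (values 0.63 to 1.92, adjusted p = 0.0622 to 0.198). Without MFP 48 h replicate 2 Angpt1 stood at 1.06 and kept its call.

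At 48 h the effects of MFP and of no MPA, each against MPA, differed for 19 members by the direct test between them. The difference was 2.82 for Calcrl, 2.64 for Emcn, 2.51 for Sox18, 2.47 for Mmrn2, 2.26 for Aplnr, 2.26 for Plvap, 2.23 for Lyve1, 2.19 for Selp, 2.00 for Cdh5, 1.95 for Pecam1, 1.85 for Sox17, 1.83 for Pdgfrb, 1.78 for Angpt1, 1.76 for Rgs5, 1.66 for Robo4, 1.55 for Tek, 1.37 for Ptprb, 1.21 for Erg and -1.68 for Vwf. Between 48 h and 24 h of MFP 1 member differed, Prox1, by -1.98. Groups of 2 arrays are too small for a test of whether 1 array is an outlier within its group. The effect of leaving out single arrays on the calls against no MPA is given with each gene group above.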

How the results depend on the processing

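Each count of members that passed was recomputed under the alternatives that apply to it: the fit on 4 arrays was not run for the trend, and hours unlogged was run for the trend alone. No paired analysis was possible because the labels give no replicate numbers, and those used here follow accession order. Centring the arrays left each count within 1.5 times its main value, and so did array weights. Of 60 changes called for single members none changed sign in 647 recomputed values, 467 kept their call and 180 lost it, 104 of them with 1 array left out and 47 under quantile normalization. Under quantile normalization 0 members passed at 48 h against MPA, 0 at 24 h, 1 at 48 h against no MPA and 0 between 48 h and 6 h, while the trend kept 12. All genes called at 48 h against MPA were 3 under it and 2272 otherwise. By construction neither array of the MPA group can exceed 1 on this scale. The SD over probe sets is 0.25 and 0.27 in these arrays and 0.69 and 0.65 in the MFP 48 h arrays. Quantile normalization gives all arrays 1 distribution. With only the 4 arrays of both groups in the fit, 0 members passed at 48 h against MPA (43 genes in all) and 0 at 24 h (117 genes), and 16 at 48 h against no MPA. Averaging probe sets gave 1 at 6 h, 1 at 12 h and 3 at 24 h against MPA. The 50% of genes with the larger SD gave 1 at 12 h and 4 at 24 h. With single arrays left out the count ran from 0 to 0 at 6 h, 0 to 1 at 12 h, 1 to 7 at 24 h and 1 to 14 at 48 h against MPA, 0 to 0 for no MPA against MPA, 8 to 16 at 48 h against no MPA, 4 to 11 between 48 h and 6 h, and 8 to 13 in the trend. Counts in this section that stand without one over all genes describe the members alone. Signal over background is unknown here.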
